A study of Mus musculus with 45 samples.

Results

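The genes described here are Rps19, Tsr2 and Rps19bp1, chosen by symbol: 3 of the 13449 genes in the deposited table. Rps19 encodes a protein of the small ribosomal subunit, Tsr2 encodes a small protein that escorts a newly made ribosomal protein to the assembling subunit, and Rps19bp1 encodes a protein found through its binding to the Rps19 protein. The samples were pools of fetal liver cells from mice at embryonic stage E15.5, sorted for Kit (progenitors) or for Ter119 (maturing erythroid cells). Each pool gave a cytoplasm library, and most also gave a polysome library. Cells received emetine, and extracts ran on sucrose gradients. The cytoplasm fraction is described as free cytoplasmic mRNA. The 4 genotypes were Rpl5flox/+, VavCre Rpl5flox/+, Rps19flox/+ and VavCre Rps19flox/+. In the genotypes with VavCre, a Cre recombinase driven by the Vav promoter, which is active in blood cells, acts on 1 floxed allele of Rpl5 or of Rps19 while the other allele is intact. Both controls carry the floxed allele without VavCre, and no group carries VavCre alone. Fetuses were pooled by genotype, in equal number, before sorting, so a replicate is a pool, and a p-value here covers no more than the spread among such pools.

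As background, Rps19 joins the head of the small ribosomal subunit and is required for the last cuts that free the small-subunit rRNA from its precursor. Loss of 1 copy of RPS19 is the best known cause of Diamond-Blackfan anemia, in which the bone marrow fails to make red cells, and mutations in TSR2 have been found in the same disease. The partner for which Tsr2 is best known is Rps26, so Rps26 is followed beside the members. Rps19bp1, also called AROS, is known as an activator of the deacetylase SIRT1, which acts on p53. The mRNAs of ribosomal proteins start with a run of pyrimidines, the TOP motif, through which their translation is controlled as a group.

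The starts of the genes are shown because the members did not change together, and the letters around their start sites can be set side by side. Rps19 lies at chr7:24884592-24889811 on the forward strand, Tsr2 at chrX:151087094-151096543 and Rps19bp1 at chr15:80260614-80264306, both on the reverse strand, in the RefSeq annotation of GRCm38.p6. Each line holds 70 bases before the first annotated start and 30 bases from it on, 5′ to 3′ on the gene's strand, read from the RefSeq promoter table of that build. Capitals mark a full match to the palindrome of TCTCG followed at once by its reverse complement, here called the CGCG element, or to CACGTG, the E-box bound by Myc and related factors. Both motifs read the same on both strands and do not overlap each other.
Rps19 (chr7:24884522-24884621, forward strand): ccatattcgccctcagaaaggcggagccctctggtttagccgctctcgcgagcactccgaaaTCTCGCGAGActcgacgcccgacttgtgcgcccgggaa
Tsr2 (chrX:151096514-151096613, reverse strand): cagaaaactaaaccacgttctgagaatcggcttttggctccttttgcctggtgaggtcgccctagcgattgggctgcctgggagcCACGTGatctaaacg
Rps19bp1 (chr15:80264277-80264376, reverse strand): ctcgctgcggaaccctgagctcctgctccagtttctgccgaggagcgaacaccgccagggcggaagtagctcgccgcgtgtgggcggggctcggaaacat

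The CGCG element of Rps19 begins 8 bases before the first annotated start, and windows of the same length at 101 of 32817 promoters (0.308%) hold it. The E-box of Tsr2 begins 15 bases after the start, and 1038 of the same windows (3.16%) hold one. Neither motif is in the Rps19bp1 window. Rps19 has 3 annotated starts, and positions are given from the first alone. A pyrimidine run of 13 bases, marked by capitals, begins 39 bases after the first annotated start of Rps19.
Rps19 (chr7:24884621-24884650, forward strand): aaccccgtcgTTCCCTTTCCCCTggctggc
Of the 13 bases, 11 lie within the first 50 bases from that start, the window searched at all promoters. An unbroken pyrimidine run of at least 11 bases within the first 50 bases was found at 1603 promoters (4.88%). These matches describe letters only, since no binding or start site was measured in these libraries.

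Of 45 libraries in 16 groups, those of cytoplasm held 22.9 to 123 M reads and those of polysomes 1.01 to 39.8 M. 4 polysome libraries held under 2 M reads: Rpl5flox/+ Kit+ replicate 3, Rps19flox/+ Kit+ replicates 1 and 3, and VavCre Rpl5flox/+ Ter119+ replicate 3. VavCre Rpl5flox/+ Kit+ polysomes are 1 library and Rpl5flox/+ Ter119+ polysomes 2, and the other groups have 3. The sort marker of progenitors followed the labels: Kit stood at 1382 to 1971 normalized counts in Kit+ cytoplasm and at 3.54 to 852 in Ter119+ cytoplasm. Rpl5, the other targeted gene, stood at 437 to 579 in VavCre Rpl5flox/+ against 930 to 1112 in Rpl5flox/+ Kit+ cytoplasm. In Ter119+ cytoplasm it was not lower, at 455 to 549 against 295 to 459. Relative to the median small-subunit gene of its library it was lower in both cell types, at -5.64 to -5.27 against -4.89 to -4.62 (log2) in Ter119+ cells. In the Rps19 line, where Rpl5 is not targeted, Rpl5 in Kit+ cytoplasm was also lower with VavCre, at 491 to 748 against 866 to 1042. Relative to the median small-subunit gene these 2 groups overlapped, at -4.863 to -4.026 against -4.224 to -3.952. On Ter119+ polysomes all 3 libraries labelled VavCre Rpl5flox/+ had Rpl5 above Rpl5flox/+, at 410 to 6334 against 110 to 226. Relative to the median small-subunit gene these libraries stood at -6.633 to -2.301 against -6.859 to -6.285, which overlapped. The highest, at 6334, was replicate 3, 1 of those under 2 M reads, and it goes furthest against its label. Levels below are normalized counts, recovered from the deposited log2 values and given in the order of replicates 1, 2 and 3. They are not compared between genes, because transcript lengths were not used. Changes are differences of log2 values with their standard error (SE), and adjusted p is from limma with Benjamini-Hochberg adjustment over all genes tested, with 0.05 as the threshold. All values are per library, so fewer cells of a type and less RNA per cell cannot be told apart.

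Rps19 was lower in Kit+ cells that carried VavCre and the floxed Rps19 allele, while the message in maturing Ter119+ cells was not called changed in cytoplasm. In Kit+ cytoplasm, Rps19 stood at 14495, 12574 and 11750 normalized counts in VavCre Rps19flox/+ (mean 12940 ± 1409 SD, n = 3). In the Rps19flox/+ controls it stood at 20144, 16201 and 17767 (mean 18037 ± 1985 SD, n = 3). Every VavCre library was below every control library. The change was -0.48 ± 0.11 on the log2 scale (95% interval -0.71 to -0.25), or 0.718 times the control level (adjusted p = 0.00191, limma), while the median change of all genes was 0.011. In this comparison 53.7% of 10908 genes tested were called. Which part of Rps19 is deleted is not given, so these counts may include a shortened message.

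In Ter119+ cytoplasm, Rps19 stood at 10787, 13710 and 11573 in VavCre Rps19flox/+ (mean 12023 ± 1513 SD, n = 3) and at 13048, 13099 and 15378 in Rps19flox/+ (mean 13842 ± 1331 SD, n = 3). The groups overlapped. The change was -0.21 ± 0.14 (95% interval -0.51 to 0.10, adjusted p = 0.302, limma), so a fall as large as that in Kit+ cells was within the interval. Among all genes 25.8% of 10939 were called. As reads of Rps19 per M reads of the library, these groups stood at 369, 494 and 403 against 322, 329 and 387. The VavCre libraries leaned higher by this measure, with overlap, so the direction in Ter119+ cytoplasm depends on the scaling between libraries. In Kit+ cytoplasm the VavCre libraries were below the controls by this measure too, at 1236 to 1510 against 1748 to 2092. The difference between the cell types in the change was 0.27 ± 0.17 and was not called (adjusted p = 0.302, limma), in a comparison in which 12.3% of genes were.

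VavCre with the floxed Rpl5 allele went with the opposite direction. Rpl5 encodes a protein of the large subunit, and Rps19 itself is not targeted in this line. In Kit+ cytoplasm, Rps19 stood at 25539, 24934 and 22609 in VavCre Rpl5flox/+ (mean 24361 ± 1547 SD, n = 3) and at 19225, 19807 and 16779 in Rpl5flox/+ (mean 18604 ± 1607 SD, n = 3). The groups did not overlap. The change was 0.39 ± 0.11, a fold of 1.31 (adjusted p = 0.0106, limma), with 37.2% of all genes called, and leaving out Rpl5flox/+ replicate 3 ended the call (adjusted p = 0.0511, limma).

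The rise was larger in Ter119+ cytoplasm. There Rps19 stood at 24222, 24496 and 24156 in VavCre Rpl5flox/+ (mean 24292 ± 180.2 SD, n = 3) and at 11176, 10219 and 13241 in Rpl5flox/+ (mean 11545 ± 1544 SD, n = 3). The groups lay far apart, and the VavCre libraries were within the spread of the same genotype in Kit+ cells. The change was 1.08 ± 0.14, a fold of 2.11 (adjusted p = 1.7e-05, limma), against a median of 0.16 over all genes, of which 65.5% were called. The difference between the cell types in this change was 0.69 ± 0.17 (adjusted p = 0.0021, limma), with 48.4% of genes called.

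Without VavCre, Rps19 was not called different between the floxed lines. The difference between Rps19flox/+ and Rpl5flox/+ controls was -0.05 for Rps19 in Kit+ cytoplasm (adjusted p = 0.999, limma) and 0.27 in Ter119+ cytoplasm (adjusted p = 0.479, limma). No gene was called between the control lines in either cell type (0%), and 331 genes in Kit+ and 1177 in Ter119+ cytoplasm had an unadjusted p under 0.05. The change of Rps19 in its own line minus that in the Rpl5 line was -0.87 ± 0.15 in Kit+ cytoplasm (adjusted p = 0.000397, limma, 48.2% of genes called). It was -1.29 ± 0.20 in Ter119+ cytoplasm (adjusted p = 0.000289, limma, 41.5% called).

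**Figure D1:**
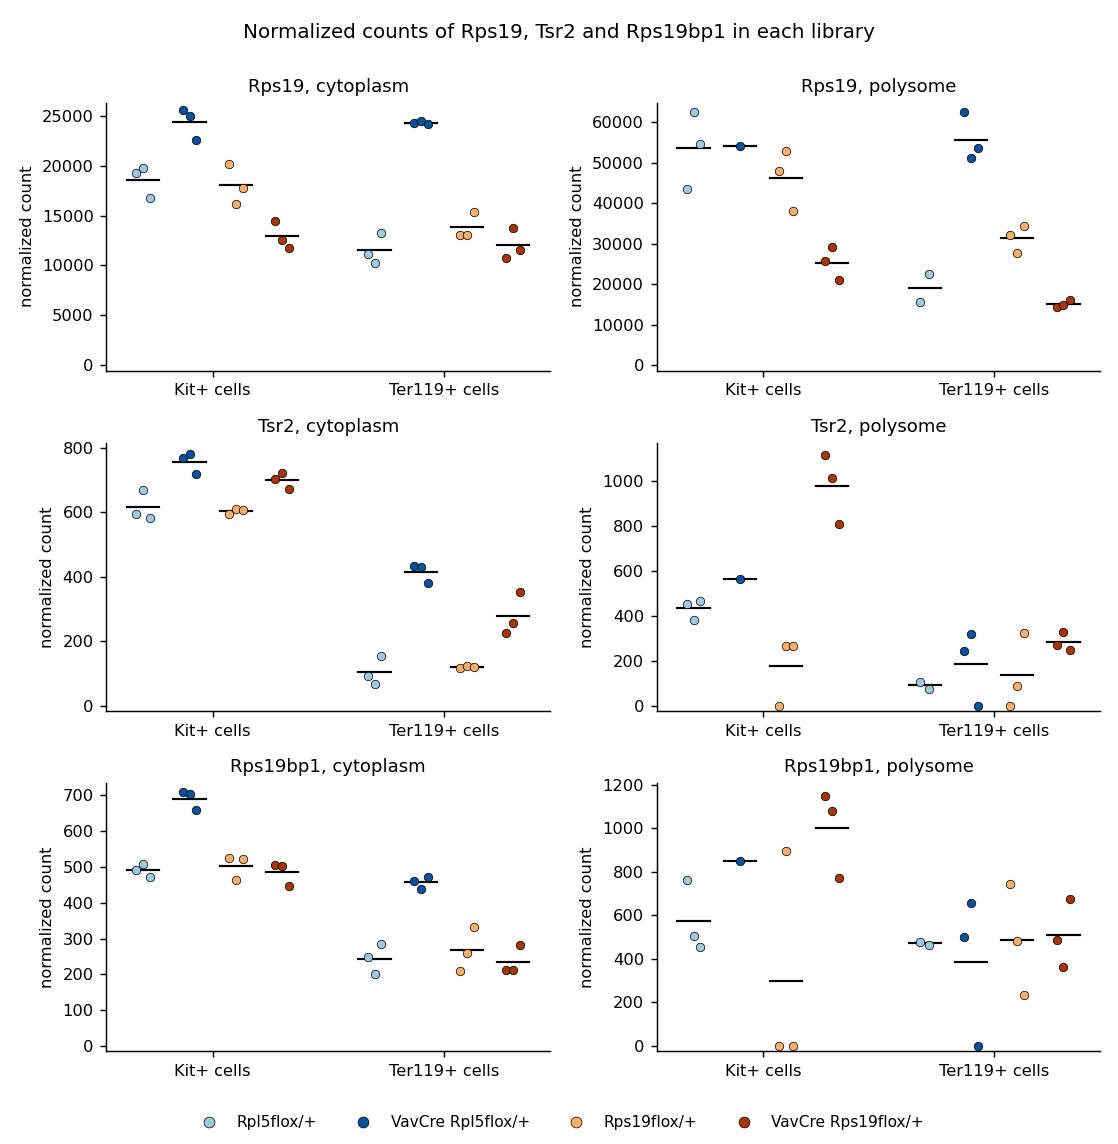
Normalized counts of Rps19, Tsr2 and Rps19bp1 in each library, by genotype, cell type and fraction. Points are libraries and bars are group means, on linear axes that start at 0. In Kit+ cytoplasm the 3 VavCre Rps19flox/+ libraries of Rps19 lie between 11750 and 14495, below the 9 other libraries.

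Ordered by level in cytoplasm, Rps19 was highest in VavCre Rpl5flox/+ Kit+ and VavCre Rpl5flox/+ Ter119+ cells, whose libraries overlapped. The Kit+ controls of both lines came next, clear of the groups above and below and overlapping each other. The other 4 groups followed, each overlapping its neighbour in the order: Rps19flox/+ Ter119+, VavCre Rps19flox/+ Kit+, VavCre Rps19flox/+ Ter119+ and Rpl5flox/+ Ter119+. Kit+ cells with VavCre and the floxed Rps19 allele thus had Rps19 at a level that overlapped that of control Ter119+ cells. Between controls, Ter119+ minus Kit+ was -0.54 ± 0.10 for Rps19 (adjusted p = 0.000174, limma), against a median of -0.13, in a comparison in which 78.7% of all genes were called.

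Most other small-subunit genes fell with Rps19 in Kit+ cytoplasm of the Rps19 line and rose with it in the Rpl5 line, and Rps19 lay inside their range. In Kit+ cytoplasm of the Rps19 line, 25 of 33 fell, 3 rose and 5 were not called, with a median change of -0.31, while 26.1% of all genes fell and 27.6% rose. Without Rps19flox/+ replicate 1, 12 of them fell. The lowest was Rps27 at -0.82 and the highest Rps27l, a paralog known as a p53 target, at 0.53. Of the 33, 7 had a lower change than Rps19. Rps26 changed by -0.24 (adjusted p = 0.0249, limma), a call that was lost in 4 of 6 leave-one-out fits (adjusted p up to 0.0983).

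In Kit+ cytoplasm of the Rpl5 line, 24 of the 33 rose and none fell, with a median of 0.37, while 20.8% of all genes rose and 16.4% fell. 19 of them had a lower change than Rps19. In Ter119+ cytoplasm of the Rpl5 line, 31 rose and none fell, with a median of 1.03, while 35.3% of all genes rose and 30.1% fell, and 22 of them had a lower change than Rps19. The highest was Rps28 at 1.57. Rps26 rose by 0.40 in Kit+ (adjusted p = 0.00245, limma) and by 0.89 in Ter119+ cytoplasm (adjusted p = 0.000129, limma) of this line. In Ter119+ cytoplasm of the Rps19 line, 1 rose and none fell, with a median of -0.08, while 12.5% of all genes rose and 13.3% fell. There 6 of the 33 had a lower change than Rps19, and Rps26 changed by -0.08 (adjusted p = 0.728, limma). Rps19 therefore lay near the middle of its subunit in the Rpl5 line and in its lower part in its own line.

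A comparison within each library takes out what the small-subunit genes share. Rps19 minus the median small-subunit gene, in log2, was -0.0081 ± 0.022 SD in VavCre Rps19flox/+ Kit+ cytoplasm (n = 3) and 0.087 ± 0.050 SD in the other 9 libraries. The ranges did not overlap, and the difference was -0.095 (exact permutation test, two-sided, p = 0.01364, adjusted p = 0.04092 over 12 tests). The other 9 were not alike: the value was 0.13 ± 0.042 SD in Rpl5flox/+, 0.095 ± 0.025 SD in Rps19flox/+ and 0.034 ± 0.010 SD in VavCre Rpl5flox/+ (n = 3 each), so it was lower with VavCre than without it in the Rpl5 line too, with no overlap. Rps19 made up 2.20 to 2.36% of small-subunit reads in VavCre Rps19flox/+ Kit+ cytoplasm and 2.58 to 2.85% in the other 9. This share was not lower with VavCre in the Rpl5 line, at 2.67 to 2.85% against 2.65 to 2.73%, which overlapped. In Ter119+ cytoplasm the difference in Rps19 minus the median small-subunit gene was -0.10. The ranges overlapped there, and the adjusted p of the exact permutation test was 0.07791. In Kit+ cells the shift against the subunit was therefore smaller than the change of -0.48 in Rps19 itself.

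**Figure D2:**
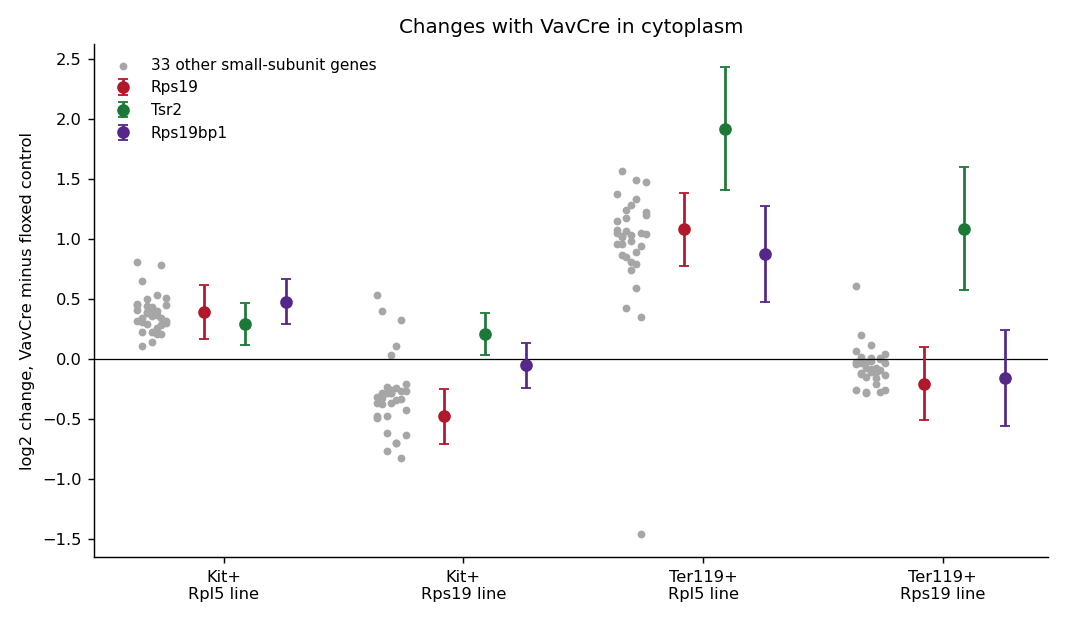
Log2 change with VavCre, with 95% interval, for Rps19, Tsr2 and Rps19bp1 in cytoplasm of each line and cell type, beside the changes of the 33 other small-subunit genes (grey points). In Kit+ cytoplasm of the Rps19 line Rps19 lies at -0.48, Tsr2 at 0.21 and Rps19bp1 at -0.05.

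Tsr2 did not follow Rps19 in the Rps19 line. It was higher with VavCre in both lines, and most clearly in Ter119+ cells. In Kit+ cytoplasm Tsr2 stood at 702, 723 and 671 normalized counts in VavCre Rps19flox/+ (mean 699 ± 25.8 SD, n = 3) and at 595, 609 and 606 in Rps19flox/+ (mean 603 ± 6.98 SD, n = 3). The groups did not overlap. The change was 0.21 ± 0.08 (95% interval 0.03 to 0.38, adjusted p = 0.0441, limma), close to the threshold, and it was not called when any 1 of the 6 libraries was left out (adjusted p 0.0509 to 0.133, limma). A fit of those 6 libraries alone gave an adjusted p of 0.0739 (limma).

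In the Rpl5 line, Tsr2 in Kit+ cytoplasm stood at 768, 780 and 720 with VavCre and at 595, 668 and 582 without it, again with no overlap. The change was 0.29 ± 0.08 (adjusted p = 0.0117, limma), and leaving out Rpl5flox/+ replicate 3 ended the call (adjusted p = 0.0513, limma). The lines did not differ detectably in this change, with a difference of -0.09 ± 0.11 (95% interval -0.33 to 0.16, adjusted p = 0.548, limma).

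In Ter119+ cytoplasm Tsr2 stood at 224, 256 and 353 in VavCre Rps19flox/+ (mean 278 ± 67.3 SD, n = 3) and at 118, 124 and 121 in Rps19flox/+ (mean 121 ± 2.92 SD, n = 3). All 3 VavCre libraries were above the controls. The change was 1.09 ± 0.24, a fold of 2.12 (adjusted p = 0.00522, limma). In the same cells the floxed Rpl5 allele with VavCre gave 433, 431 and 381 (mean 415 ± 29.6 SD, n = 3) against 93, 66.2 and 155 (mean 104 ± 45.3 SD, n = 3) in Rpl5flox/+. The change was 1.92 ± 0.24, a fold of 3.78 (adjusted p = 1.07e-05, limma), and the groups were far apart. The difference between the lines in the change was -0.83 ± 0.34 and was not called (adjusted p = 0.0624, limma), but it was called without Rpl5flox/+ replicate 3 or without VavCre Rps19flox/+ replicate 3.

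The changes of Tsr2 in Ter119+ cells were larger than in Kit+ cells, by 1.62 ± 0.25 in the Rpl5 line (adjusted p = 2.58e-05, limma) and by 0.88 ± 0.25 in the Rps19 line (adjusted p = 0.0272, limma). The second was not called in 6 of the 12 leave-one-out fits (adjusted p up to 0.0884, limma). Between controls, Tsr2 was the member that differed most between cell types: Ter119+ minus Kit+ was -2.33 ± 0.15, or 0.199 times the Kit+ level (adjusted p = 9.4e-10, limma). In order of level in cytoplasm, the 4 Kit+ groups lay above the 4 Ter119+ groups, and within Ter119+ cells VavCre Rpl5flox/+ was highest, VavCre Rps19flox/+ next and the controls, which overlapped, lowest. Tsr2 overlaps Fgd1 in the annotation, and Fgd1 stood at 0 to 17.5 normalized counts in cytoplasm (median 6.42, n = 24 libraries). Tsr2 is X-linked, and the sexes of the pooled fetuses are not given: the Y-linked Ddx3y stood at 0 to 490 in Ter119+ cytoplasm and 0 to 173 in Kit+ cytoplasm. Its change in the Rps19 line was -1.76 in Kit+ (adjusted p = 0.2043, limma) and -1.33 in Ter119+ cytoplasm (adjusted p = 0.5364, limma), and the part of the sex of the pools in the changes of Tsr2 was not tested.

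Markers of progenitors moved with Tsr2 in Ter119+ cells. The summed level of 4 progenitor markers (Kit, Myb, Cd34 and Gata2) in Ter119+ cytoplasm was 266 to 598 in Rpl5flox/+ and 368 to 409 in Rps19flox/+, against 751 to 1044 in VavCre Rps19flox/+ and 2721 to 2810 in VavCre Rpl5flox/+. Kit alone stood at 3.54 to 83.4 in the controls, 230 to 363 in VavCre Rps19flox/+ and 721 to 852 in VavCre Rpl5flox/+. The summed level of 5 erythroid markers ran the other way, at 605047 to 1338860 in Rpl5flox/+ and 643569 to 766260 in Rps19flox/+, against 515741 to 588537 in VavCre Rps19flox/+ and 124675 to 174346 in VavCre Rpl5flox/+. Thus the Ter119+ groups with more Tsr2 also held more progenitor message and less erythroid message, and the part of this in the changes of the members was not tested. Each of these markers had reads in at least 1 library of every Ter119+ group.

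In Kit+ cytoplasm the sum of 6 granulocyte and monocyte markers was 14349 to 18471 in Rps19flox/+ against 3278 to 6960 in VavCre Rps19flox/+, and 19729 to 21590 in Rpl5flox/+ against 42649 to 78586 in VavCre Rpl5flox/+. In Kit+ cytoplasm this sum lay on the same side of its controls as Rps19 in both lines. In Ter119+ cytoplasm it was 29969 to 61908 in VavCre Rpl5flox/+ against 4778 to 8343 in Rpl5flox/+, and 1588 to 2685 in VavCre Rps19flox/+ against 3984 to 6370 in Rps19flox/+. The sum of 4 B-lymphoid markers in Kit+ cytoplasm was lower with VavCre in both lines, at 21.6 to 42.2 against 453 to 911 in the Rps19 line and at 228 to 290 against 866 to 1158 in the Rpl5 line. The sum of 8 hepatocyte markers was 3068 to 7808 in Rps19flox/+ and 6824 to 9377 in VavCre Rps19flox/+ Kit+ cytoplasm, which overlapped. It was 4622 to 15118 in Rpl5flox/+ and 17811 to 32467 in VavCre Rpl5flox/+. The part of these markers in the changes of the members was not tested.

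Rps19bp1 rose in the Rpl5 line and was not called in the Rps19 line. In Kit+ cytoplasm it stood at 709, 703 and 660 normalized counts in VavCre Rpl5flox/+ (mean 691 ± 27.1 SD, n = 3) and at 493, 510 and 473 in Rpl5flox/+ (mean 492 ± 18.3 SD, n = 3). The groups did not overlap, and the change was 0.48 ± 0.09 (adjusted p = 0.000935, limma). In Ter119+ cytoplasm it stood at 462, 438 and 471 with VavCre and at 249, 200 and 283 without it. The change was 0.88 ± 0.19, a fold of 1.84 (adjusted p = 0.000907, limma), with no overlap.

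In the Rps19 line, Rps19bp1 in Kit+ cytoplasm stood at 506, 502 and 448 with VavCre and at 524, 465 and 522 without it. The change was -0.05 ± 0.09 (95% interval -0.24 to 0.13, adjusted p = 0.625, limma). In Ter119+ cytoplasm it stood at 212, 212 and 282 against 210, 260 and 331, a change of -0.16 ± 0.19 (95% interval -0.56 to 0.24, adjusted p = 0.555, limma). Both pairs of groups overlapped. The lines differed in the change by -0.53 ± 0.12 in Kit+ (adjusted p = 0.00321, limma) and by -1.04 ± 0.26 in Ter119+ cytoplasm (adjusted p = 0.00657, limma). Between controls, Ter119+ minus Kit+ was -0.94 ± 0.11 (adjusted p = 1.97e-06, limma), or 0.521 times the Kit+ level.

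Set against Tsr2 within the same library, Rps19 was lower in VavCre Rps19flox/+ than in the 9 other libraries in both cell types. The log2 difference Rps19 minus Tsr2 in Kit+ cytoplasm was 4.18 ± 0.14 SD in VavCre Rps19flox/+ (n = 3) and 4.91 ± 0.11 SD in the others. The shift of -0.73 had the smallest p that this exact permutation test can give (p = 0.004545, two-sided, adjusted p = 0.01818 over 12 tests), and the ranges were apart. In Ter119+ cytoplasm it was 5.38 ± 0.36 SD against 6.38 ± 0.46 SD, a shift of -1.01 (exact permutation test, adjusted p = 0.01818), and the ranges were apart. VavCre Rpl5flox/+, among the others, stood at 5.82 ± 0.095 SD (n = 3), also below every control library, the lowest of which was at 6.29. In VavCre Rps19flox/+ cells the change against the controls of the same line was 1.09 for Tsr2 and -0.21 for Rps19.

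Rps19 minus Rps19bp1 in Kit+ cytoplasm was 4.69 ± 0.10 SD in VavCre Rps19flox/+ (n = 3) and 5.14 ± 0.08 SD in the others. The shift was -0.45 (exact permutation test, adjusted p = 0.01818), with no overlap. In Ter119+ cytoplasm the shift was -0.011 (exact permutation test, adjusted p = 0.9), and the ranges overlapped. With 2 VavCre Rps19flox/+ libraries in place of 3, so few arrangements are left that no adjusted p of the shifts called was below 0.05454 (exact permutation test), while the shift against Tsr2 in Kit+ cytoplasm stayed at -0.81 to -0.69 and that against Rps19bp1 at -0.50 to -0.41.

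**Figure D3:**
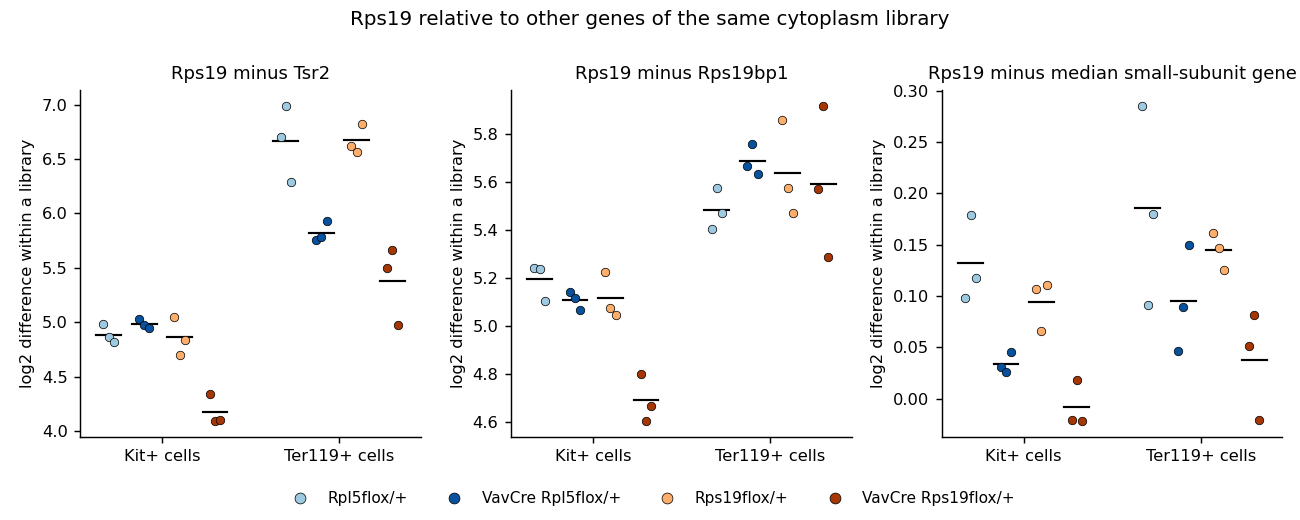
Log2 difference within each library between Rps19 and Tsr2, Rps19bp1 or the median small-subunit gene in cytoplasm, by genotype and cell type. Points are libraries and bars are group means. In Kit+ cytoplasm the 3 VavCre Rps19flox/+ libraries lie below the 9 others in all 3 comparisons.

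On polysomes, the mRNA that ribosomes were translating, Rps19 was lower in normalized counts in VavCre Rps19flox/+ than in Rps19flox/+ in both cell types. On Kit+ polysomes it stood at 25619, 29298 and 21128 (mean 25348 ± 4092 SD, n = 3) against 47812, 52810 and 38127 (mean 46250 ± 7465 SD, n = 3), with no overlap. As reads of Rps19 per M reads of the library, the same groups stood at 2438, 2940 and 2266 against 2278, 3849 and 1572. These overlapped, so this separation was seen only after the scaling between libraries that gives normalized counts. The median gene changed by 1.11, and 9.86% of 10557 genes were called. In normalized counts the change of Rps19 was -0.87 ± 0.20, or 0.548 times the control level (adjusted p = 0.0222, limma). It was not called in 4 of 6 leave-one-out fits (adjusted p up to 0.108), without the libraries under 2 M reads (-1.07, adjusted p = 0.0705) or with library weights (-0.78, adjusted p = 0.292, all limma). The VavCre Rps19flox/+ libraries stood apart in another way too. Reads assigned to Lars2, the gene of a mitochondrial tRNA synthetase, made up 0.382 to 4.51% of their reads. The share was 10.3 to 54.9% in Rps19flox/+, 12.6 to 49.4% in Rpl5flox/+ and 26.3% in the VavCre Rpl5flox/+ library. Whether these reads are Lars2 mRNA was not tested, nor was their part in this change of Rps19. On Ter119+ polysomes the share was 0.306 to 1.57% in VavCre Rps19flox/+ and 3.22 to 17.3% in Rps19flox/+. It was 0.165 to 4.47% in Rpl5flox/+ and 1.37 to 35.1% in VavCre Rpl5flox/+ there.

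On Ter119+ polysomes Rps19 stood at 14497, 14951 and 16139 in VavCre Rps19flox/+ (mean 15196 ± 847 SD, n = 3) and at 32086, 27675 and 34246 in Rps19flox/+ (mean 31336 ± 3350 SD, n = 3). The groups did not overlap, although the Rpl5flox/+ controls, at 15741 and 22626, overlapped the VavCre Rps19flox/+ libraries. The change was -1.04 ± 0.20, or 0.487 times the control level (adjusted p = 0.0406, limma), with 0.801% of 10614 genes called. It was not called in 5 of 6 leave-one-out fits (adjusted p up to 0.21, limma). Reads of Rps19 per M reads were also lower with VavCre there, at 394, 545 and 496 against 618, 614 and 759, with no overlap. The control lines differed by 0.73 ± 0.22 here (adjusted p = 0.549, limma), and no gene was called between them (0%, with 596 genes at an unadjusted p under 0.05), while on Kit+ polysomes the difference was -0.21 (adjusted p = 0.689, limma) and 0.00947% of genes were called.

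In the Rpl5 line, Rps19 on Ter119+ polysomes stood at 62384, 51068 and 53477 in the libraries labelled with VavCre (mean 55643 ± 5961 SD, n = 3) and at 15741 and 22626 without it (mean 19184 ± 4868 SD, n = 2). The change was 1.55 ± 0.22, a fold of 2.94 (adjusted p = 0.000747, limma), against a median of -1.004, with 13.2% of genes called. Without replicate 3, whose Rpl5 level goes furthest against its label, it was 1.58 (adjusted p = 0.0007762, limma). On Kit+ polysomes the 1 VavCre library, at 53982, lay within the controls at 43416, 62393 and 54647. The change there was 0.03 ± 0.28 (adjusted p = 1, limma), with 1.82% of genes called. The cell types differed in this change by 1.52 ± 0.32 (adjusted p = 0.0156, limma, 2.18% called), a call that was lost without Rpl5flox/+ Ter119+ polysome replicate 1 (adjusted p = 0.0997). Without the libraries under 2 M reads this difference was 1.53 (adjusted p = 0.02127, limma).

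The lines differed in the change of Rps19 by -2.59 ± 0.30 on Ter119+ polysomes (adjusted p = 0.000321, limma, 10.4% of genes called), and by -2.62 without that replicate 3 (adjusted p = 0.0002004). On Kit+ polysomes the difference was -0.90 ± 0.34 and was not called (adjusted p = 0.253, limma, 1.51% called). The cell types did not differ detectably in the change within the Rps19 line, at -0.17 (adjusted p = 0.964, limma), where no gene was called (0%, with 565 genes at an unadjusted p under 0.05). Between controls, Ter119+ minus Kit+ polysomes was -0.97 ± 0.20 for Rps19 (adjusted p = 0.00175, limma), with 23.7% of genes called.

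Some of the other small-subunit genes fell with Rps19 on polysomes of the Rps19 line. In the Rps19 line, 15 of 33 fell on Kit+ polysomes and none rose, with a median of -0.65, while 3.68% of all genes fell and 6.19% rose. The count was 7 without the libraries under 2 M reads, 2 with library weights and 8 to 13 in leave-one-out fits. On Ter119+ polysomes 9 fell and none rose, with a median of -0.77, while 0.575% of all genes fell and 0.226% rose. The count was 17 without the libraries under 2 M reads, 16 with library weights, and 0 or 1 in 5 of 6 leave-one-out fits. Of the 33, 13 had a lower change than Rps19 on Kit+ and 8 on Ter119+ polysomes. Rps26 changed by -0.59 on Kit+ (adjusted p = 0.1004, limma) and by -0.11 on Ter119+ polysomes (adjusted p = 0.860, limma) of the Rps19 line. With the floxed Rpl5 allele it changed by 1.19 on Ter119+ (adjusted p = 0.00628, limma) and by 0.05 on Kit+ polysomes (adjusted p = 1, limma), and leaving out Rpl5flox/+ Ter119+ polysome replicate 1 ended that call (adjusted p = 0.1171).

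Relative to the median small-subunit gene, Rps19 on Ter119+ polysomes was at -0.028 ± 0.16 SD in VavCre Rps19flox/+ (n = 3) and at 0.35 ± 0.20 SD in the other libraries. The shift of -0.38 had no overlap (exact permutation test, p = 0.01818, adjusted p = 0.04363), but the ranges lay close, with the highest VavCre Rps19flox/+ library at 0.099 and the lowest other at 0.120. The other groups were not alike. The value was 0.19 ± 0.11 SD in Rpl5flox/+ (n = 2), 0.30 ± 0.080 SD in Rps19flox/+ (n = 3) and 0.52 ± 0.25 SD in VavCre Rpl5flox/+ (n = 3). The share of small-subunit reads from Rps19 was 2.21 to 2.71% in VavCre Rps19flox/+, 2.91 to 3.15% in Rps19flox/+, 2.61 to 3.15% in Rpl5flox/+ and 3.33 to 3.43% in VavCre Rpl5flox/+. On Kit+ polysomes the shift was -0.18 and the ranges overlapped (exact permutation test, adjusted p = 0.13).

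Both polysome sets were enriched for Rps19 against cytoplasm in controls. Polysome minus cytoplasm was 1.43 ± 0.10 in Kit+ cells (adjusted p = 1.11e-05, limma, 45.1% of genes called) and 1.03 ± 0.16 in Ter119+ cells (adjusted p = 0.00167, limma, 26.7% called). The median gene stood at -1.32 and -0.66, and the median small-subunit gene at 1.34 and 0.92. Pool by pool, the log2 difference in Ter119+ cells was 0.43, 0.12 and 0.48 in VavCre Rps19flox/+, below all the other Ter119+ pools, which ran from 0.49 to 1.36. The median small-subunit gene in the same 3 pools stood at 0.69, 0.11 and 0.43.

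The change of the polysome to cytoplasm ratio with VavCre was -0.83 ± 0.31 for Rps19 in Ter119+ cells of the Rps19 line (95% interval -1.52 to -0.14, adjusted p = 0.518, limma), where 0.00918% of genes were called. In Kit+ cells of that line it was -0.39 ± 0.29 (adjusted p = 0.374, limma, 5.25% called), with pools at 0.82, 1.22 and 0.85 against 1.25, 1.70 and 1.10. In the Rpl5 line it was -0.40 ± 0.41 in Kit+ (adjusted p = 0.959, limma, 0.0739% called) and 0.37 ± 0.35 in Ter119+ cells (adjusted p = 0.537, limma, 0.0184% called). No change of this ratio was called for Rps19.

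**Figure D4:**
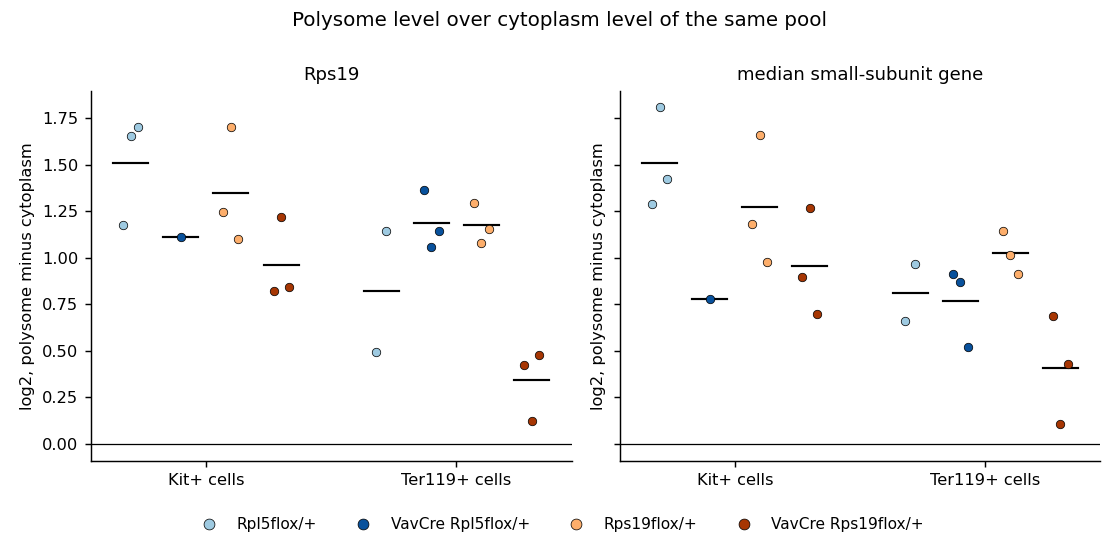
Polysome minus cytoplasm log2 value of Rps19 in each pool, by genotype and cell type, beside that of the median small-subunit gene. Points are pools and bars are group means. The 3 VavCre Rps19flox/+ Ter119+ pools lie at 0.12 to 0.48, below the other Ter119+ pools, and their median small-subunit gene lies at 0.11 to 0.69.

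No genotype change of Tsr2 or Rps19bp1 was called on polysomes with all libraries in the fit, and several libraries held few or no reads of either. Tsr2 on Kit+ polysomes stood at 1114, 1015 and 810 in VavCre Rps19flox/+ and at 0, 264 and 265 in Rps19flox/+, from 1149, 2484 and 3263 reads against 0, 138 and 20. The change was 3.55 ± 1.18 (adjusted p = 0.0849, limma), a size set partly by the library at 0, where 3 reads would have been 62.3 normalized counts. Without that library it was 1.82 and called (adjusted p = 0.01222, limma), and it was also called without Rps19flox/+ replicate 2 (adjusted p = 0.04624). On Ter119+ polysomes it stood at 271, 328 and 247 in VavCre Rps19flox/+ and at 0, 87.0 and 324 in Rps19flox/+, which overlapped. Rps19bp1 on Kit+ polysomes stood at 1151, 1078 and 771 in VavCre Rps19flox/+ and was at 0 in 2 of the 3 Rps19flox/+ libraries, both under 2 M reads. With 3 reads, those would have stood at 62.3 and 39.7, so the third, at 897, is the only control library with reads. The change was 7.04 and called without that library (adjusted p = 0.001098, limma), when both controls left are at 0, and 0.133 without the libraries under 2 M reads (adjusted p = 0.8164).

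Genes that act with the members were counted from lists. Of 25 genes of small-subunit assembly, 13 rose and 2 fell in Kit+ cytoplasm of the Rps19 line (median 0.31), where 27.6% of all genes rose and 26.1% fell. In Ter119+ cytoplasm of that line 14 rose and none fell (median 0.77), where 12.5% of all genes rose. With the floxed Rpl5 allele 6 rose and none fell in Kit+ cytoplasm (median 0.18), a share near the 20.8% of all genes that rose, and 20 rose and 3 fell in Ter119+ cytoplasm (median 1.06), where 35.3% of all genes rose. By adjusted p the leading members in the Rps19 line were Utp4, Nat10 and Rcl1 in Kit+ cells, with changes of 1.06, 1.17 and 1.78, and Utp4 and Bms1 in Ter119+ cells, with 1.62 and 1.22. In the Rpl5 line they were Rrp12 in Kit+ cells, at 0.69, and Heatr1 and Utp20 in Ter119+ cells, at 2.21 and 2.11. All act on the precursor of the small subunit. In Kit+ cytoplasm of the Rps19 line, then, more assembly genes rose than fell while more small-subunit protein genes fell than rose, and Tsr2 was higher.

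Of 11 chaperones and importers of ribosomal proteins, 4 rose and 3 fell in Kit+ and 5 rose and none fell in Ter119+ cytoplasm of the Rps19 line, the latter count being 2 to 5 in leave-one-out fits. Beside the shares of all genes in these comparisons (27.6% up and 26.1% down in Kit+, 12.5% up in Ter119+), the Kit+ counts of this list are near the background. With the floxed Rpl5 allele 1 rose and 2 fell in Kit+ cytoplasm (20.8% and 16.4% of all genes), and 7 rose and 1 fell in Ter119+ cytoplasm (35.3% and 30.1%). Of 4 genes of SIRT1 and p53, Cdkn1a, the cell cycle inhibitor induced by p53, rose by 4.99 and 5.77 in Kit+ and by 5.72 and 6.39 in Ter119+ cytoplasm of the Rpl5 and Rps19 lines. Mdm2, the ligase that degrades p53, rose by 0.76 in Kit+ cytoplasm of the Rpl5 line and by 0.54 and 0.59 in Kit+ and Ter119+ cytoplasm of the Rps19 line, and stood at 0.30 in Ter119+ cytoplasm of the Rpl5 line (adjusted p = 0.118, limma). Trp53, the gene of p53, rose by 0.98 in Kit+ and by 1.004 in Ter119+ cytoplasm of the Rps19 line and by 1.04 in Ter119+ cytoplasm of the Rpl5 line, and stood at -0.03 in Kit+ cytoplasm of the Rpl5 line (adjusted p = 0.878, limma). Sirt1, whose protein Rps19bp1 activates, fell by 0.71 (adjusted p = 0.0328) in Kit+ and by 1.72 (adjusted p = 6.16e-05) in Ter119+ cytoplasm of the Rpl5 line. In the Rps19 line it fell by 1.16 (adjusted p = 0.00122) in Kit+ cytoplasm, and in Ter119+ it was at -0.69 (adjusted p = 0.0668, all limma). Sirt1 thus changed in both lines, while Rps19bp1 was called only in the Rpl5 line. 

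The genes nearest to each member over the 24 cytoplasm libraries were found by Pearson correlation of log2 values among 8945 genes, as a description of these libraries, which share genotype, cell type and depth. For Rps19 they were Rps15a, Rps9, Fau, Rpl17 and Rpl34, at 0.984 to 0.988, all ribosomal protein genes. Tsr2 ranked 1992 for Rps19, at 0.598, and Rps19bp1 ranked 788, at 0.776. For Tsr2 they were Srpk1, Pdcd2, 2810004N23Rik, Fbl and Zfp593, at 0.987 to 0.990, of which Pdcd2 is known as a chaperone of Rps2 and Fbl is a nucleolar methyltransferase. For Rps19bp1 they were Pfn1, Selenoh, Ngdn, Polr1d and Nt5c, at 0.968 to 0.975. With the mean of each cell type taken off, the nearest were Fau, Rps20, Rps12 and Rpl35a for Rps19, at 0.988 to 0.992. Srpk1 and Pdcd2 still led for Tsr2, at 0.976 and 0.967, followed by Msto1, Glrx3 and Rrs1. For Rps19bp1 they were Ctsz, Pfn1, Krtcap2, Emg1 and Selenoh, at 0.925 to 0.942.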

How the data were processed

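The deposited table holds log2 values, which the authors stabilised for variance, of 13449 genes in 45 libraries. Reads were of 100 bp and the build was mm10, per the submitters' processing notes; the aligner, counter and strand setting were, in these sources, not given. Per the labels' protocols, cells received emetine at 25 µg/mL for 15 min and extracts ran on gradients of 10 to 50% sucrose (41000 rpm, 2 h); the cytoplasm fraction is described as free cytoplasmic mRNA. The transform was inverted, and every value gave whole reads within 1e-06. Changes were fitted to the deposited log2 values with limma 3.58.1 (R 4.3.3; lmFit, eBayes with trend, two-sided) over genes whose normalized count averaged 10 or more, with the 4 genotypes of a cell type and fraction sharing 1 spread. Benjamini-Hochberg adjustment ran over all genes tested. The fit was tested on simulated data. Differences within a library were compared by exact permutation, VavCre Rps19flox/+ against all other libraries of the same cell type and fraction.

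The members, gene lists and tests were chosen with earlier results of these data known. Named genes are the members, Rps26, the 4 list genes with the smallest adjusted p in each genotype comparison in cytoplasm, and the 5 nearest genes by correlation, of which 1 is not reported here. Sirt1, Rps27, Lars2, Fgd1, Ddx3y and Rpl5 fall outside this rule and were named after their values were seen. Gene positions and promoters are from RefSeq tables (GRCm38.p6), which hold 13226 of the symbols. 13 Rps19 pseudogenes are annotated there, and reads could be shared with them. Replicate numbers paired libraries only in cytoplasm of the Rpl5 line, where same-numbered deviations correlated at 0.244 to 0.305 in Kit+ and 0.134 to 0.273 in Ter119+ cells; no call on a member changed with the replicate number as a block. No replicate pair of the 43 compared agreed within sampling noise. Alternatives covered the normalization, the filter, library weights, libraries under 2 M reads and each library left out.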

Additional observations from a re-analysis of the deposited data

Results flagged for a closer look

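These differences between groups in the change with VavCre passed the threshold of limma's test of the difference itself. The change of Rps19 in its own line minus that in the Rpl5 line was -0.87 in Kit+ cytoplasm, -1.29 in Ter119+ cytoplasm and -2.59 on Ter119+ polysomes. The same difference was -0.53 in Kit+ and -1.04 in Ter119+ cytoplasm for Rps19bp1. The change in Ter119+ minus that in Kit+ cells was 0.69 in cytoplasm and 1.525 on polysomes for Rps19 in the Rpl5 line, and for Tsr2 in cytoplasm it was 1.625 in the Rpl5 line and 0.88 in the Rps19 line.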

How the results depend on the processing

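Of the values of the members recomputed under the alternatives, 766 kept direction and side of the threshold, 48 lost a call, 12 gained one and 23 changed sign. Some polysome libraries held no read of Tsr2 or of Rps19bp1. For Tsr2 these included Rps19flox/+ Ter119+ replicate 1, which held 12.6 M reads. The part of depth in these values was not tested. The cause of the changes below was not tested.

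With a replicate block, the changes on Kit+ polysomes of the Rpl5 line, with 1 VavCre library, turned to -0.1922 for Rps19, -0.9401 for Rps19bp1, -0.1238 for Rps26 and -0.1707 for Tsr2, none called. The block changed no other call on a member or Rps26. In the comparisons where replicate numbers paired the libraries, it moved the genes called from 4055 to 4166 (Rpl5 line, Kit+ cytoplasm) and from 7160 to 7149 (Ter119+ cytoplasm). It moved them from 192 to 79 and from 159 to 68 (Kit+ polysomes, Rpl5 line and difference between lines), from 568 to 141 and from 8 to 0 (ratio of polysome to cytoplasm in Kit+ cells, Rps19 and Rpl5 lines) and from 1 to 2 (Rps19 line, Ter119+ ratio).

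With only the 2 groups fitted, Tsr2 in Kit+ cytoplasm of the Rps19 line gave 0.2064 (adjusted p = 0.0739, limma). With size factors of the fitted libraries alone, Tsr2 between control lines in Kit+ cytoplasm gave 0.01756 and Rps19 on Ter119+ polysomes of the Rps19 line -1.165 (adjusted p = 0.05001, limma). With library weights, the line difference of Tsr2 in Ter119+ cytoplasm was -0.9075 (adjusted p = 0.0186), Rps19 on Kit+ polysomes of the Rps19 line -0.779 (adjusted p = 0.292) and Tsr2 on Ter119+ polysomes of the Rpl5 line 1.204 (adjusted p = 0.4688, all limma).

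Without the libraries under 2 M reads, Kit+ polysomes of the Rps19 line gave -1.071 for Rps19 and 1.822 for Tsr2 (adjusted p = 0.0139, limma, with 1 control library left). The same setting gave 0.02098 for Rps19 between control lines on Kit+ polysomes, 0.2789 for Rps19bp1 and 1.5 for Tsr2 on Ter119+ polysomes of the Rpl5 line, and 0.03207 for the difference of Rps19 between cell types in the Rps19 line. On Kit+ polysomes Rps19 minus Tsr2 was -2.314 and Rps19 minus Rps19bp1 -1.482 (exact permutation test, adjusted p = 0.04898 for both).

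On log2 of the normalized count plus 1, Rps19 minus Rps19bp1 in Ter119+ cytoplasm was 0.005798. Against the floxed group of its own line, 3 against 3, no shift can pass: in Kit+ cytoplasm they were -0.6849 (Tsr2), -0.4253 (Rps19bp1) and -0.1027 (median small-subunit gene), with -1.293 (Tsr2) in Ter119+ cytoplasm and -0.3236 (median small-subunit gene) on Ter119+ polysomes. Against the mean of the small-subunit genes, the shift was -0.2786 on Kit+ polysomes and -0.1731 in Ter119+ cytoplasm, both called.

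Leaving out each library in turn gave these ranges in cytoplasm. In the Rpl5 line in Kit+ cells they were 0.3178 to 0.4432 for Rps19 and 0.2556 to 0.3527 for Tsr2. In the Rps19 line in Kit+ cells they were -0.1083 to 0.0019 for Rps19bp1 and 0.1823 to 0.2343 for Tsr2, and for Rps26 in Ter119+ cells -0.1884 to 0.04224. Between control lines they were -0.1292 to 0.02784 for Rps19 and -0.06221 to 0.03491 for Tsr2 in Kit+ cells, and -0.04726 to 0.2642 for Rps19bp1 in Ter119+ cells. The line difference of Tsr2 in Ter119+ cells was -1.12 to -0.5846. The difference between cell types was 0.2711 to 0.5085 (Rpl5 line) and -0.2592 to 0.05219 (Rps19 line) for Rps19bp1 and 0.7022 to 1.013 (Rps19 line) for Tsr2.

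On polysomes the ranges were, in Kit+ cells of the Rpl5 line, -0.1133 to 0.1483 for Rps19 and -0.1417 to 0.1585 for Rps26. In Kit+ cells of the Rps19 line they were -0.9996 to -0.742 for Rps19, 3.589 to 7.044 for Rps19bp1 (called in 1 of 6 fits) and 1.82 to 4.422 for Tsr2 (called in 2 of 6). In Ter119+ cells of the Rpl5 line they were -2.958 to 0.2789 for Rps19bp1 and -1.227 to 1.5 for Tsr2, and of the Rps19 line -1.126 to -0.9724 for Rps19 and -0.2754 to 0.5237 for Rps19bp1. The difference of Rps19 between cell types in the Rpl5 line was 1.263 to 1.786.

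Within a library, leaving out 1 VavCre Rps19flox/+ library gave -0.8127 to -0.6901 (Tsr2), -0.5031 to -0.4063 (Rps19bp1) and -0.1079 to -0.0882 (median small-subunit gene) in Kit+ cytoplasm. In Ter119+ cytoplasm it gave -1.149 to -0.8048 (Tsr2) and -0.174 to 0.1416 (Rps19bp1), and on Ter119+ polysomes -0.4441 to -0.2893 (median small-subunit gene). The fit of Kit+ polysomes of the Rpl5 line without its 1 VavCre library could not be fitted and was not run.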
